A study of Mus musculus with 2 samples.

Results

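The type II classical cadherins described here are *Cdh6*, *Cdh7*, *Cdh8*, *Cdh9*, *Cdh10*, *Cdh11*, *Cdh12*, *Cdh18*, *Cdh20* and *Cdh22*, 10 of the 31053 genes counted in each library. They were chosen by name as the neuronal members of the family, and all 10 had unique molecular identifiers (UMIs) in both libraries. The data are single-nucleus RNA counts from the olfactory bulb of adult mice labelled WT, in 2 libraries. In one, retroAAV-CAG-H2B-GFP had been injected into the anterior olfactory nucleus (AON), and in the other into the posterior piriform cortex (pPCx). Both groups therefore carried the same virus, and no uninjected group is analysed here. Axon endings take this virus up, and its green protein collects in the nucleus, so that green bulb nuclei can be sorted. The CAG promoter works in most cell types, so green nuclei can also include cells that the virus reached in other ways. For sparse green granule and periglomerular cells, the paper names infected migrating neurons or spread of the virus as possible sources. In the counts used here, eGFP had 3 UMIs in the whole AON library and 1 in the whole pPCx library. How each nucleus came to be sorted was not tested. The methods of the study describe the pPCx library, from 1 C57Bl/6 mouse, but not the AON library, which is known from its labels alone. Each group has 1 library, so no test between injection sites was possible, and every interval given is an exact 95% interval for counting error only.

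Type II cadherins are calcium-dependent adhesion proteins of the cell surface. Their outermost extracellular domain swaps a strand with a partner on the neighbouring cell, and their cytoplasmic tail holds catenins, which connect to actin. Members bind themselves and certain relatives, and by this binding they fall into groups: *Cdh6*, *Cdh9* and *Cdh10*; *Cdh8* and *Cdh11*; and *Cdh7*, *Cdh12*, *Cdh18*, *Cdh20* and *Cdh22*. In the brain they are known for combinatorial expression in neuron types and for roles in the sorting of neurons and the choice of synaptic partners. Mitral and tufted cells are the glutamatergic projection neurons of the bulb, whereas granule and periglomerular cells are mostly GABAergic.

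Nuclei with at least 1000 genes were divided by 7 marker genes. A projection nucleus had more UMIs of *Slc17a7*, *Slc17a6*, *Tbx21* and *Cdhr1* together than of *Gad1*, *Gad2* and *Slc32a1*, a GABAergic nucleus had the reverse with at least 3 inhibitory UMIs, and the others are called remaining nuclei. The AON library held 25 projection, 47 GABAergic and 30 remaining nuclei, and the pPCx library held 59, 2 and 2. Projection nuclei had a median of 38129 UMIs in the AON library (3291 to 274993) and 34306 in the pPCx library (8767 to 167296), and no cell barcode was shared by the libraries. Markers outside the rule matched the label of the class as a whole, since *Reln*, an extracellular protein of mitral and tufted cells, was at 2536 UMIs per 1000000 (CPM) in AON and 2636 CPM in pPCx projection nuclei, against 38.6 CPM in AON GABAergic nuclei. The class was less uniform in the AON library, where 10 of 25 nuclei had 3 or fewer excitatory marker UMIs and 3 had more glial than excitatory marker UMIs, against 3 of 59 and 0 of 59 in the pPCx library. A list of 4 genes of cortical glutamatergic neurons, all 4 of them detected in both libraries, summed to 553 CPM in AON and 133 CPM in pPCx projection nuclei, of which *Cux2* alone made up 536 and 107 CPM. The part of these differences in the results below was not tested except where values without those nuclei are given.

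By GENCODE M21 on GRCm38, 5 members lie on chromosome 15 within 10.5 Mb, from *Cdh6* at chr15:13028701-13173675 on the minus strand to *Cdh18* at chr15:22549022-23474418 on the plus strand. *Cdh9*, *Cdh10* and *Cdh12* lie between them. *Cdh20* (chr1:104768529-104995481) and *Cdh7* (chr1:109982431-110140157) are 4.99 Mb apart on the plus strand of chromosome 1, *Cdh8* and *Cdh11* lie on chromosome 8, and *Cdh22* on chromosome 2. *Cdh7* and *Cdh20* are the only pair that shared any 31-base stretch of transcript (2 such stretches), and no other member shared any. Among genes that were themselves counted, some on the opposite strand overlap *Cdh8*, *Cdh9*, *Cdh12*, *Cdh18*, *Cdh20* and *Cdh22*. *Cdh11* overlaps 4 annotated genes, none of which was counted. Whether the counting used strand is not given in the sources used here.

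*Cdh6* and *Cdh20* were the members with more than 2-fold higher levels in AON projection nuclei, and the 250 bases before their RefSeq starts (GRCm38.p6), which end at or just before the annotated first exon, are shown for that reason, 5′ to 3′ on the strand of the gene. The *Cdh6* stretch is chr15:13173676-13173925, minus strand, and the *Cdh20* stretch is chr1:104768270-104768519, plus strand. No base is in capitals, since neither stretch held any of the 3 motifs searched on both strands.
Cdh6: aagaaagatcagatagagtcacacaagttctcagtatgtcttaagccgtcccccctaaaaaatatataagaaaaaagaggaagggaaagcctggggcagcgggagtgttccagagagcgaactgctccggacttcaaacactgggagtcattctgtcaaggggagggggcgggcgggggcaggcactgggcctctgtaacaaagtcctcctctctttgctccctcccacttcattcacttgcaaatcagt
Cdh20: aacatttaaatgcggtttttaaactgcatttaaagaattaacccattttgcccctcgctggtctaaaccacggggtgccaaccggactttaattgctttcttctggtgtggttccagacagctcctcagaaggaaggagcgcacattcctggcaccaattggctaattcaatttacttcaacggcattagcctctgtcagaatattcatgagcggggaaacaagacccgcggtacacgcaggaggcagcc
The motifs were CCCNNGGG, the core bound by EBF factors, TCACACCT, a T-box core, and TAATTA, a homeodomain core, which do not overlap one another. They occurred in 11.8%, 1.12% and 4.84% of the 32851 RefSeq promoters of the same length. Of the 9 members with a promoter in the RefSeq table, *Cdh7* held the EBF core and the homeodomain core, each in 1 of its 3 windows, and *Cdh22* held overlapping copies of the EBF core. No member held the T-box core. The *Cdh6* and *Cdh20* stretches differed in base composition, with 51.2% and 47.6% G and C.

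Between the 2 groups of projection nuclei, 2 of the 10 members (*Cdh6*, *Cdh20*) were at least 2-fold higher in the AON library and 3 (*Cdh7*, *Cdh9*, *Cdh12*) were at least 2-fold higher in the pPCx library. Over all 11172 genes with at least 20 UMIs in both sums together, 6.66% passed the same line toward AON and 9.82% toward pPCx. The median log2 ratio of AON over pPCx was 0.08 for the 10 members and -0.06 for all genes tested. The summed level of the 10 members was 1704 CPM (1628 to 1782) in AON and 1428 CPM (1380 to 1478) in pPCx projection nuclei.

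**Figure D1:**
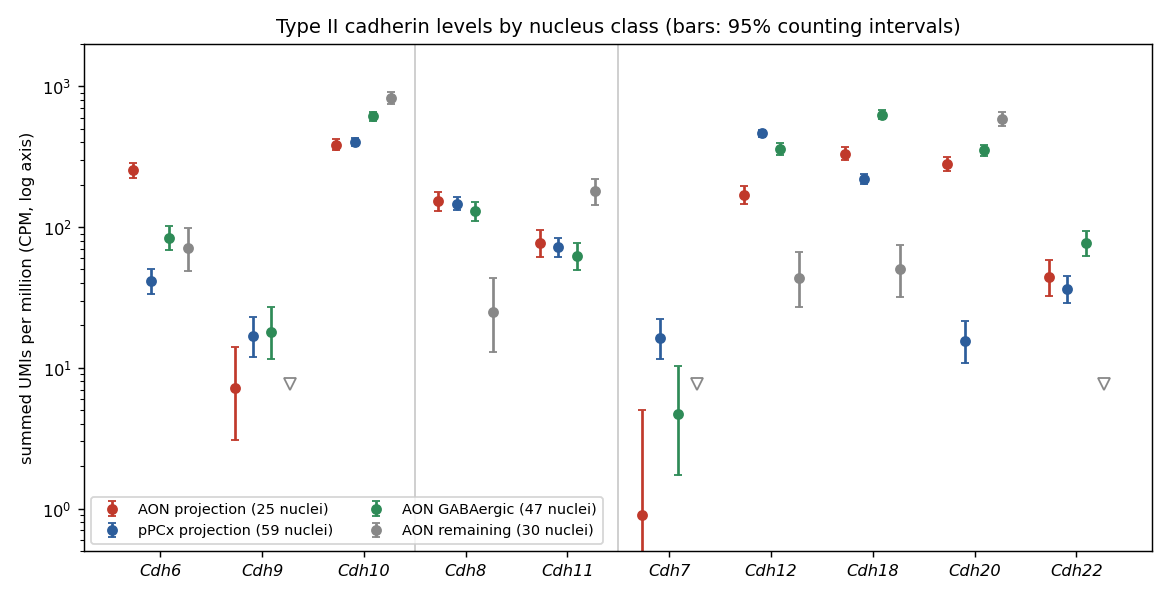
Summed level of each member, in CPM on a log axis, in 4 classes of nuclei, with exact 95% counting intervals as bars and members ordered by binding group. Open triangles mark the upper interval limit of classes with 0 UMIs; *Cdh20* separates pPCx projection nuclei (15.5 CPM) from the other 3 classes, and *Cdh6* is highest in AON projection nuclei (252 CPM).

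In the group of *Cdh6*, *Cdh9* and *Cdh10*, the 3 genes took 3 different courses. *Cdh6*, a cadherin used as a marker of some retinal and cortical neuron types, stood at 252 CPM (282 UMIs) in AON and 41.2 CPM (96 UMIs) in pPCx projection nuclei, a 6.12-fold difference (4.84 to 7.80). It had UMIs in 19 of 25 AON and 21 of 59 pPCx nuclei, which is 76.0% against 35.6%, and with every nucleus thinned to 3000 UMIs the shares were 41.1% and 7.70%. The highest single nucleus held 22.3% of the AON and 32.3% of the pPCx UMIs of the gene, so that *Cdh6* came from a smaller share of the nuclei in the pPCx library. In a class that showed none, the 8 oligodendrocyte-led AON nuclei (median 15840 UMIs), the share was 0 of 8.

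*Cdh9*, known from synapse formation in the hippocampus, was sparse in both libraries. It had 8 UMIs in 6 of 25 AON nuclei (7.16 CPM) and 39 UMIs in 17 of 59 pPCx nuclei (16.8 CPM), 2.34-fold higher in pPCx with a wide interval (1.08 to 5.80). With 5 UMIs in place of 0.5 added to each sum, the log2 ratio went from -1.16 to -0.70, under the 2-fold line. *Cdh10* was the member with the most pPCx nuclei, at 386 CPM (350 to 424) in AON and 401 CPM (375 to 427) in pPCx, with UMIs in 21 of 25 and 58 of 59 nuclei. Its ratio of pPCx over AON was 1.04 (0.926 to 1.17). With each nucleus weighing the same, the log2 ratio of AON over pPCx moved from -0.05 to -0.51, and the deepest AON nucleus alone held 23.2% of the AON UMIs.

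*Cdh8* and *Cdh11* differed between the libraries by less than the counting error. *Cdh8*, which marks subsets of cortical and hippocampal neurons, was at 153 CPM in AON and 146 CPM in pPCx projection nuclei (ratio 1.05, 0.864 to 1.26). It had UMIs in 14 of 25 AON nuclei and 50 of 59 pPCx nuclei, but after thinning to 3000 UMIs the shares were closer, 25.3% and 32.8%. The deepest AON nucleus held 46.2% of its AON UMIs. *Cdh11*, which is expressed by many mesenchymal and neural cells, was at 77.0 CPM and 72.2 CPM (ratio 1.07, 0.813 to 1.39). Fibroblast markers, which would mark mesenchymal cells, were at 0 UMIs for all 4 genes of their list in AON projection nuclei.

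The remaining group held the largest differences in both directions. *Cdh20* stood at 282 CPM (315 UMIs) in AON and 15.5 CPM (36 UMIs) in pPCx projection nuclei, an 18.2-fold difference (12.9 to 26.5). It was detected in 17 of 25 AON and 9 of 59 pPCx nuclei, 68.0% against 15.3%, or 40.2% against 2.51% after thinning to 3000 UMIs. Without the 10 AON projection nuclei under 20000 UMIs its AON level was 276 CPM. Without the 3 nuclei with more glial than excitatory marker UMIs it was 269 CPM. These sets held only 26 and 24 of the 315 AON UMIs, so leaving them out could change the level little. The deepest AON nucleus held 100 of the 315 UMIs (31.75%). Without nuclei of over 3 times the median depth, the log2 ratio of AON over pPCx went from 4.171 to 4.496. Of the pPCx UMIs, 36.1% came from 1 nucleus.

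*Cdh7*, the chromosome 1 neighbour of *Cdh20*, went the other way. It had 1 UMI in the 25 AON nuclei and 38 UMIs in 15 of the 59 pPCx nuclei, or 0.895 CPM against 16.3 CPM. The ratio of pPCx over AON was 18.2, with a counting interval of 3.08 to 739. *Cdh12*, also called brain cadherin, was 2.74-fold higher in pPCx (2.34 to 3.21). It stood at 463 CPM with UMIs in 55 of 59 pPCx nuclei, against 169 CPM with UMIs in 16 of 25 AON nuclei, of which 1 held 34.4%. The 3 members that were higher in pPCx thus included 1 abundant gene, *Cdh12*, and 2 sparse ones.

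*Cdh18* was 1.51-fold higher in the AON library (333 against 220 CPM, interval 1.32 to 1.73), but this difference rested on few nuclei. In the AON library 3 nuclei with 24 to 83 UMIs of *Ebf1*, a transcription factor gene that had at most 3 UMIs in any other AON projection nucleus, held 313 of the 372 *Cdh18* UMIs (84.1%). These 3 nuclei were noticed after the values were seen. In them *Cdh18* was at 1830 CPM, and in the other 22 nuclei at 62.3 CPM, below the pPCx level. In the pPCx library the deepest nucleus held 27.5% of the *Cdh18* UMIs, and without nuclei of over 3 times the median depth the log2 ratio of AON over pPCx rose from 0.60 to 1.30. *Cdh22*, the cadherin of pituitary and brain, was low in both libraries, at 43.8 and 36.1 CPM (ratio 1.22, 0.836 to 1.75).

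**Figure D2:**
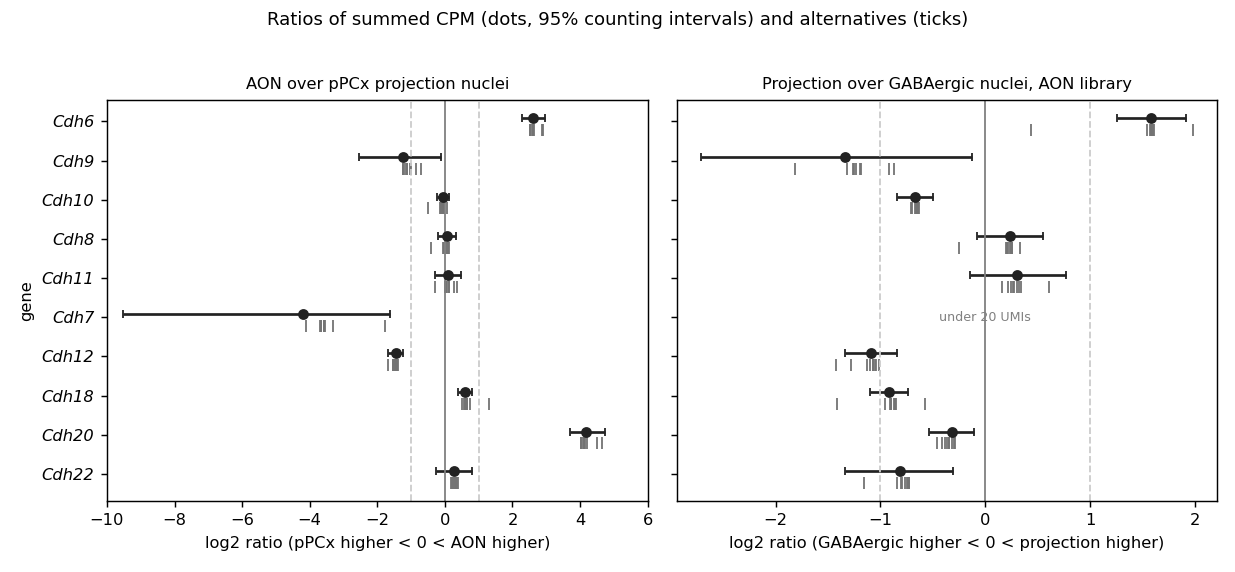
Log2 ratios of summed CPM for each member, AON over pPCx projection nuclei on the left and projection over GABAergic nuclei of the AON library on the right. Dots with bars are ratios with exact 95% counting intervals, grey ticks are the values under the alternative settings, and dashed lines mark 2-fold; *Cdh20* and *Cdh6* lie right of the line and *Cdh12* and *Cdh7* left of it on the left panel, while the interval of *Cdh9* crosses it.

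The 3 AON nuclei with *Ebf1* also differed from the rest in *Cdh20* and *Cdh6*. They held 1 of the 315 *Cdh20* UMIs, 5.84 CPM against 332 CPM in the other 22 nuclei, but 125 of the 282 *Cdh6* UMIs, 731 against 166 CPM. *Cdh11* was at 187 CPM in these 3 nuclei and 57.1 CPM in the others. Across the 25 nuclei the Spearman correlation of *Cdh18* with *Cdh20*, as shares of the UMIs of each nucleus, was -0.61. That of *Cdh6* with *Cdh20* was 0.33. All 25 points come from 1 library, and depth differs between them.

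Levels of different members were set in order per 100 kb of gene span. This scale assumes that reads from introns were counted, which the sources used here do not give, and it lowers long genes such as *Cdh12*. On this scale *Cdh10* (198 CPM per 100 kb), *Cdh6* (174) and *Cdh20* (124) led in AON projection nuclei, and the intervals of *Cdh10* (179 to 217) and *Cdh6* (154 to 196) overlapped. They were followed by *Cdh11*, *Cdh8*, *Cdh18* and *Cdh22* between 50.1 and 35.6 CPM per 100 kb, where the intervals of neighbours overlapped. *Cdh12*, *Cdh9* and *Cdh7* came last with 14.8, 5.58 and 0.568 CPM per 100 kb. In pPCx projection nuclei *Cdh10* stood alone at 205 CPM per 100 kb, *Cdh11* (47.0), *Cdh12* (40.6) and *Cdh8* (37.4) followed with overlapping intervals between neighbours, down through *Cdh22* (29.3), *Cdh6* (28.4) and *Cdh18* (23.8). *Cdh9* was at 13.1 and *Cdh20* at 6.81, the latter with an interval that overlapped that of *Cdh7* (10.4). By CPM alone, with no division by length, *Cdh12* (463) was above *Cdh10* (401) in pPCx projection nuclei.

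**Figure D3:**
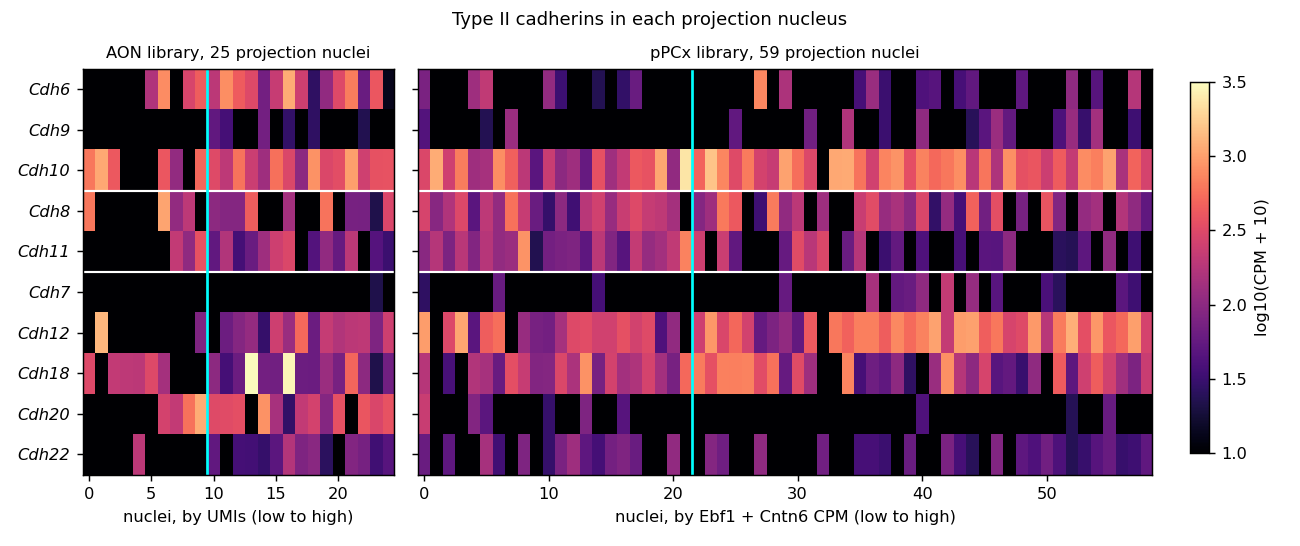
Level of each member in each projection nucleus, as log10(CPM + 10), with AON nuclei ordered by total UMIs (line at 20000 UMIs) and pPCx nuclei by summed *Ebf1* and *Cntn6* CPM (line at 1000 CPM). *Cdh20* is present in most AON nuclei and in 9 of 59 pPCx nuclei, and 2 bright AON columns of *Cdh18* coincide with an absence or near absence of *Cdh20*.

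Projection and GABAergic nuclei were next compared within the AON library. Of the 9 members with enough UMIs, *Cdh6* was at least 2-fold higher in projection nuclei, and *Cdh9* and *Cdh12* were at least 2-fold higher in GABAergic nuclei, where 15.2% and 16.1% of 9808 genes tested passed the same line. The median log2 ratio of projection over GABAergic nuclei was -0.67 for these members and -0.06 for all genes tested. The summed level of the family was 2329 CPM (2245 to 2414) in GABAergic nuclei, above the 1704 CPM of projection nuclei.

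*Cdh6* stood at 252 CPM in AON projection and 84.2 CPM in AON GABAergic nuclei (3.00-fold, 2.39 to 3.78), with UMIs in 19 of 25 and 12 of 47 nuclei. The GABAergic UMIs were concentrated, with 42.1% in 1 nucleus, and with each nucleus weighing the same the log2 ratio fell from 1.58 to 0.43. *Cdh12* was 2.13-fold higher in GABAergic nuclei (360 against 169 CPM, 1.79 to 2.53) and *Cdh9* 2.53-fold (18.1 against 7.16 CPM, 1.09 to 6.54). *Cdh18* (629 CPM), *Cdh10* (612 CPM) and *Cdh22* (77.1 CPM) were also higher in GABAergic nuclei by less than 2-fold, with intervals above 1. *Cdh20*, at 352 CPM in GABAergic and 282 CPM in projection nuclei, differed by 1.25-fold between these classes (1.08 to 1.45), far less than either differed from pPCx projection nuclei. The 2 pPCx GABAergic nuclei held 36 *Cdh20* UMIs (603 CPM, 423 to 835), as many as all 59 pPCx projection nuclei together. *Cdh7* had 6 and 1 UMIs in these classes, too few to compare.

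The 30 remaining AON nuclei gave another profile. By their leading marker list, 16 were astrocyte-led, 8 oligodendrocyte-led and 5 led by GABAergic genes outside the rule, with 1 unplaced, and their median depth of 14336 UMIs was below that of projection nuclei. *Cdh6*, *Cdh8*, *Cdh12*, *Cdh18* and *Cdh22* were at least 2-fold higher in projection nuclei and *Cdh10*, *Cdh11* and *Cdh20* at least 2-fold higher in remaining nuclei, where 18.2% and 23.4% of 8579 genes passed the same lines. The median log2 ratio was 1.87 for the 8 members tested and -0.19 for all genes tested. With genes scaled by their median ratio in place of the total, every log2 ratio of this comparison rose by 0.46 and none of the 3 genes kept a 2-fold excess in remaining nuclei.

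*Cdh18* (372 UMIs against 24) was 6.65-fold higher in projection than in remaining nuclei (4.403 to 10.5), but outside the 3 nuclei with *Ebf1* its 62.3 CPM was within the interval of remaining nuclei (32.1 to 74.4 CPM). *Cdh8* (171 UMIs against 12) was 6.12-fold higher (3.41 to 12.1), and its log2 ratio fell from 2.56 to 1.68 under the stricter class rule. *Cdh22* had 49 UMIs in projection nuclei and 0 in the 30 remaining nuclei, which allows up to 6.25 CPM by a floor of 3 UMIs, or 7.69 CPM by the exact interval. Its level in projection nuclei was at least 7.01-fold higher by the floor, and the exact lower limit of the ratio was 5.49. With all deposited barcodes the log2 ratio of *Cdh22* was 1.45, and with 5 UMIs added it was 2.21. *Cdh7* and *Cdh9* also had 0 UMIs in remaining nuclei, but their own counts were too low for a ratio. In the 8 oligodendrocyte-led nuclei *Cdh10* reached 1070 CPM and *Cdh20* 815 CPM, each with UMIs in 8 of 8 nuclei. In the 16 astrocyte-led nuclei the same genes were at 707 and 482 CPM, and *Cdh11* at 209 CPM. *Cdh10* and *Cdh20* were thus shared with glia in these data, whereas *Cdh6* had 3 UMIs in astrocyte-led and 0 in oligodendrocyte-led nuclei.

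The members were detected together in most projection nuclei. The median nucleus had UMIs of 7 members in the AON library (1 to 9) and 6 in the pPCx library (2 to 10), and 1 pPCx nucleus had all 10. This number followed depth: its Spearman correlation with total UMIs was 0.79 across the 25 AON nuclei and 0.62 across the 59 pPCx nuclei. After thinning to 3000 UMIs, the mean number of members per nucleus was 2.53 in AON and 2.48 in pPCx, and after thinning to 10000 UMIs it was 4.94 over the 18 AON nuclei that were deep enough and 4.28 over 57 pPCx nuclei.

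**Figure D4:**
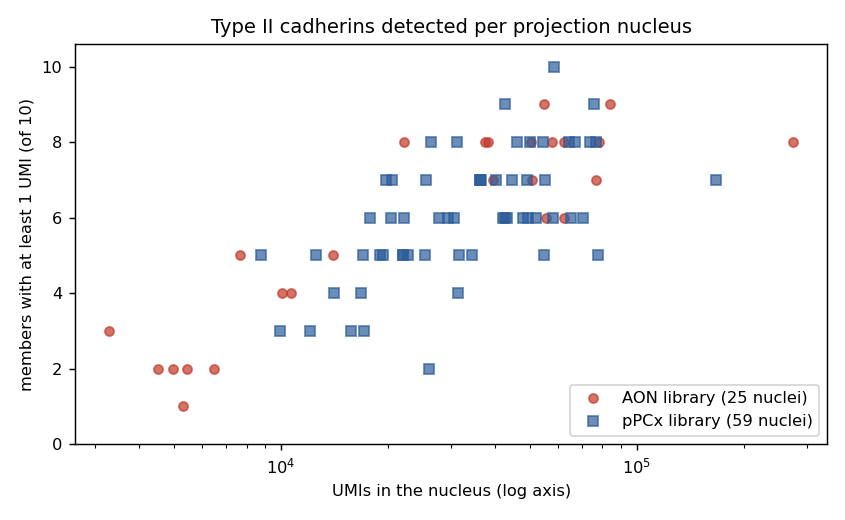
Number of members with at least 1 UMI against total UMIs on a log axis, 1 point per projection nucleus, for the AON (25) and pPCx (59) libraries. The number rises with depth in both libraries, and the AON nuclei with 1 to 3 members are all under 10000 UMIs.

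Most combinations were found in a single nucleus. Counting a member as present at 1 UMI, the 25 AON nuclei held 21 distinct combinations and the 59 pPCx nuclei 38, of which 18 and 28 were found in 1 nucleus only. In all, 5 combinations occurred in both libraries, 23.8% of those in AON and 13.2% of those in pPCx. The most common one in pPCx joined *Cdh8*, *Cdh10*, *Cdh11*, *Cdh12*, *Cdh18* and *Cdh22* in 6 nuclei. The most common one in AON added *Cdh6* and *Cdh20* to that set and was found in 3 nuclei. With 2 UMIs required, the distinct combinations numbered 23 in AON and 39 in pPCx, of which 21 and 28 were found in 1 nucleus only. The combination seen in a nucleus also depends on its depth, and no other set of genes was counted in this way.

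*Cdh10*, *Cdh12* and *Cdh18* were often found together in both libraries, and *Cdh6* with *Cdh20* mostly in AON nuclei. The first 3 were all present in 14 of 25 AON and 51 of 59 pPCx nuclei, and among nuclei with at least 20000 UMIs in 14 of 15 and 43 of 46, or 93.3% (68.0 to 99.8) and 93.5% (82.1 to 98.6). With 2 UMIs of each required, they were present in 11 of the 15 and 34 of the 46 deeper nuclei. At 1 UMI all 3 were found in 18 of 47 AON GABAergic nuclei (median 26129 UMIs) and 2 of 30 remaining nuclei (median 14336 UMIs). Among those with at least 20000 UMIs they were in 17 of 35 GABAergic and 0 of 6 remaining nuclei. With 2 UMIs of each required, these counts were 12 of 35 and 0 of 6. Above this line the median depth was 55403 UMIs in AON projection, 42567 in pPCx projection, 30249 in AON GABAergic and 23515 in AON remaining nuclei. Depth was thus not matched between these sets. *Cdh6* and *Cdh20* were found together in 16 of 25 AON and 7 of 59 pPCx nuclei, and among the deeper nuclei in 13 of 15 (86.7%, 59.5 to 98.3) and 7 of 46 (15.2%, 6.34 to 28.9). Every one of the 15 deeper AON nuclei had UMIs of at least one of them, whereas 24 of the 46 deeper pPCx nuclei had neither. *Cdh7* with *Cdh9* occurred in 6 of 59 pPCx nuclei and 0 of 25 AON nuclei, which by a floor of 3 nuclei allows up to 12% and by the exact interval up to 13.7%.

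All 3 binding groups were represented in 14 of 15 deeper AON and 44 of 46 deeper pPCx nuclei. Of the family's UMIs in projection nuclei, the group of *Cdh6*, *Cdh9* and *Cdh10* made up 37.9% (35.7 to 40.1) in AON and 32.1% (30.5 to 33.7) in pPCx. *Cdh8* with *Cdh11* made up 13.5% and 15.3%, and the group of *Cdh7*, *Cdh12*, *Cdh18*, *Cdh20* and *Cdh22* made up 48.6% and 52.6%. As summed levels, the 3 groups in this order stood at 645, 230 and 829 CPM in AON and 459, 219 and 751 CPM in pPCx projection nuclei. The last group sums *Cdh20*, higher in AON, with *Cdh7* and *Cdh12*, higher in pPCx, so its share does not show their differences. The member with most UMIs in a nucleus was *Cdh10* in 5, *Cdh20* in 5 and *Cdh18* in 4 of the 25 AON nuclei, with 5 tied, and *Cdh10* in 21, *Cdh12* in 20 and *Cdh18* in 9 of the 59 pPCx nuclei, with 2 tied. *Cdh20* led in 0 of 59 pPCx nuclei.

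Within the pPCx library, *Ebf1* and *Cntn6*, genes that divide its projection nuclei, also separated the levels of some of the cadherins. Summed *Ebf1* and *Cntn6* levels left a gap between 100.4 and 1433 CPM, and a line at 1000 CPM put 37 nuclei above and 22 below, with 1 nucleus within 1.5-fold of the line. The 2 sets had median depths of 31440 and 41132 UMIs and a median of 6 members each. Of the 10 members, 2 (*Cdh7*, *Cdh9*) were at least 2-fold higher in the 37 nuclei and 2 (*Cdh11*, *Cdh20*) in the 22, against 10.2% and 5.58% of 9686 genes tested.

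*Cdh9* had 35 UMIs in the *Ebf1*/*Cntn6*-high and 4 in the low nuclei (26.9 against 3.90 CPM, 6.88-fold, 2.46 to 26.6), and *Cdh7* had 33 and 5 (25.3 against 4.88 CPM, 5.19-fold, 2.01 to 17.0). The 2 sparse members that were higher in the pPCx library were therefore mostly in the same set of nuclei. *Cdh12* (593 against 298 CPM) and *Cdh10* (513 against 259 CPM) lay just under the line, with ratios of 1.99 (interval 1.74 to 2.28) and 1.98 (interval 1.72 to 2.29). The *Cdh10* difference depended on weights, and its log2 ratio fell from 0.99 to 0.35 with each nucleus weighing the same.

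*Cdh11* was higher in the low nuclei by 3.18-fold (117 against 36.8 CPM, interval 2.26 to 4.54), where it had UMIs in 22 of 22 nuclei against 21 of 37. *Cdh20* had 33 of its 36 pPCx UMIs in the low nuclei, in 6 of 22 of them (14.0-fold, 4.39 to 71.3), and even there its 32.2 CPM was far below the 282 CPM of AON projection nuclei. *Cdh22* was higher in the low nuclei by 1.78-fold (interval 1.13 to 2.83), and *Cdh6* was higher in the high nuclei by 1.65-fold (interval 1.06 to 2.62). For *Cdh6*, 1 nucleus held 31 of the 65 UMIs of the high set and 1 held 15 of the 31 of the low set. Without the first the high set was at 27.0 CPM, below the 30.3 CPM of the low set, and without the second the low set was at 16.9 CPM. *Cdh8* differed by less than counting error (0.889, 0.715 to 1.11). *Cdh18* changed direction with the deepest nuclei, from a log2 ratio of high over low of -0.33 to 0.57 without nuclei over 3 times the median depth, and 1 nucleus held 55.3% of its UMIs in the low set.

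**Figure D5:**
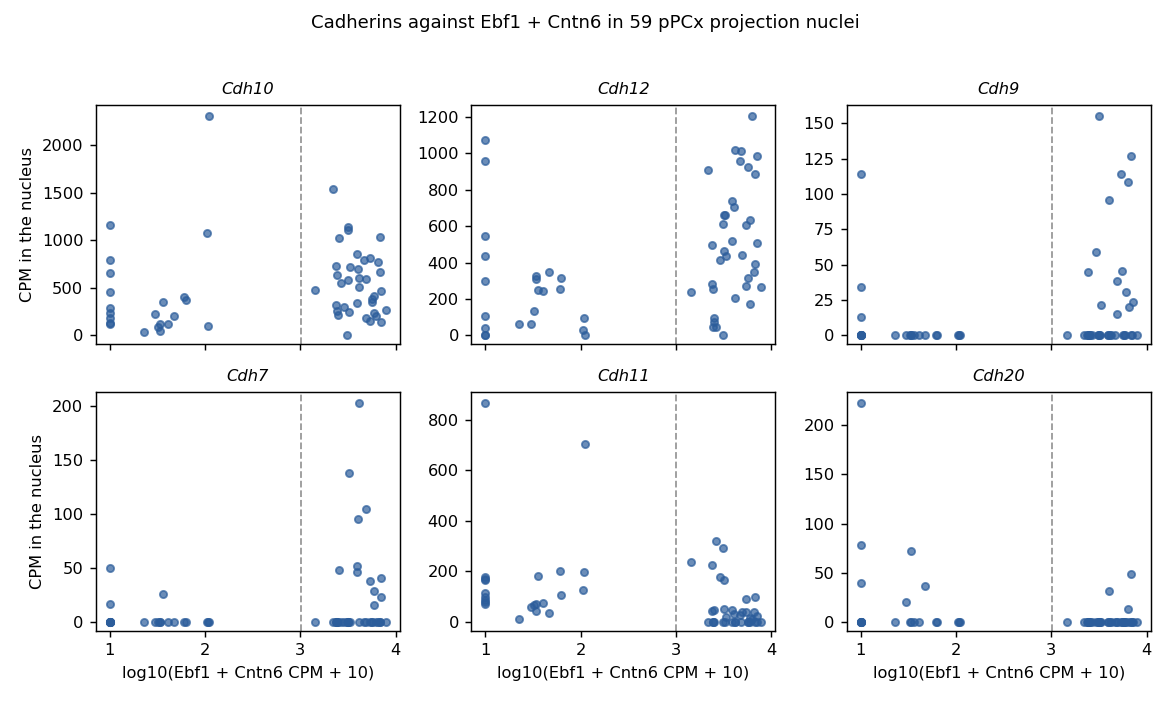
CPM of 6 members in each of the 59 pPCx projection nuclei against log10(*Ebf1* + *Cntn6* CPM + 10), with the dashed line at 1000 CPM. *Cdh9* and *Cdh7* are detected mostly right of the line, *Cdh11* in all 22 nuclei left of it, and *Cdh20* in 6 of 22 nuclei left and 3 of 37 right of it.

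The 3 AON nuclei with *Ebf1* and the pPCx split by *Ebf1* and *Cntn6* together were set side by side. In AON nuclei *Cdh18* was 1830 CPM where *Ebf1* was high and 62.3 CPM elsewhere, and in pPCx it was 198 CPM in the *Ebf1*/*Cntn6*-high and 248.8 CPM in the low nuclei, a direction that turned as given above. *Cdh20* was lower with *Ebf1* in both, at 5.84 against 332 CPM in AON and 2.30 against 32.2 CPM in pPCx. *Cdh11* was at 187 against 57.1 CPM in AON and 36.8 against 117 CPM in pPCx. These are values from 1 library each, the nuclei were divided by different rules, and whether the relation differs between the libraries was not tested.

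Other cadherins and the catenins were read as the rest of the pathway. *Cdh19*, a type II cadherin of glia, was 16.7-fold higher in AON than in pPCx projection nuclei (28.6 against 1.72 CPM, 5.91 to 64.9). However, 31 of its 32 AON UMIs were in the 3 nuclei with more glial than excitatory marker UMIs. Without those nuclei *Cdh19* had 1 UMI in AON (0.924 CPM) against 4 UMIs in pPCx, too few to compare. It was at 536 CPM in remaining nuclei. *Cdh5* and *Cdh24* had under 5 UMIs each in projection nuclei of both libraries together. Of the 5 type I cadherins, *Cdh4*, the retinal cadherin, was 2.87-fold higher in pPCx (635 against 221 CPM, 2.51 to 3.30), and *Cdh2*, the neural cadherin, differed by under 2-fold (396 CPM in AON, 331 CPM in pPCx). The other 3 type I cadherins, *Cdh1*, *Cdh3* and *Cdh15*, had too few UMIs.

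*Cdh13*, which is held to the membrane by a lipid anchor and lacks the cytoplasmic tail, was 2.28-fold higher in AON projection nuclei (396 against 174 CPM, 1.99 to 2.61) and 11.9-fold above remaining nuclei. Within the pPCx library it was 3.19-fold higher in the *Ebf1*/*Cntn6*-high nuclei (249.3 against 78.1 CPM, 2.49 to 4.13), the set with less *Cdh20*. Of 7 catenins, which link classical cadherins to the cytoskeleton, 6 differed by under 2-fold between the libraries and *Jup*, which encodes plakoglobin, was 2.64-fold higher in pPCx (14.2 against 5.37 CPM, 1.09 to 7.71). *Ctnna2*, the neural alpha-catenin, had the highest level of them, at 2676 CPM in AON and 3212 CPM in pPCx projection nuclei.

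Between cell classes of the AON library, 3 of the 6 catenins tested passed 2-fold toward GABAergic nuclei and 2 of 5 toward remaining nuclei, beside 16.1% and 23.4% of all genes tested. *Ctnna3* was 6.09-fold (942 against 155 CPM, 5.19 to 7.18), *Ctnna1* 3.59-fold (1.88 to 7.42) and *Jup* 3.22-fold (1.27 to 9.72) higher in AON GABAergic than in AON projection nuclei. *Ctnna1* was 15.9-fold and *Ctnna3* 3.18-fold higher in remaining than in projection nuclei. In the pPCx library *Ctnna3* was 5.22-fold higher in *Ebf1*/*Cntn6*-high nuclei (417 against 80.0 CPM, 4.13 to 6.66), on the side of *Cdh7*, *Cdh9* and *Cdh12*, whereas *Ctnna2* differed by 1.39-fold.

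The genes whose pattern across the 59 pPCx projection nuclei was most like that of a member were found by Spearman correlation of UMI shares, for 7 members and 7970 genes with UMIs in at least 20 nuclei. For *Cdh12* the 3 highest were *Sorl1*, a sorting receptor gene (0.69), *Celf2*, an RNA-binding protein gene (0.65), and *Ripor2* (0.64). For *Cdh11* they were *Dpp10*, a potassium channel accessory subunit gene (0.66), *Akap13* (0.66) and *Trim9* (0.61). For *Cdh6* the highest was *Arhgap24* (0.55), for *Cdh18* *Rb1cc1* (0.53), for *Cdh10* *Cit* (0.53), for *Cdh22* *Akap17b* (0.50) and for *Cdh8* *Zbtb7a* (0.47). For every member these values are the highest picked from 7970 correlations. The level that the highest of so many unrelated genes would reach was not computed, so the lists are a description only. All points are nuclei of 1 library that differ in depth, and *Cdh12* itself correlated with depth at 0.36 and *Cdh11* at -0.36. *Cdh7*, *Cdh9* and *Cdh20* were in too few nuclei to be ranked.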

How the data were processed

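The authors deposited raw UMI counts for each gene in each nucleus, the output of Cell Ranger (3.1.0 per the file headers) on 10x 3′ libraries of sorted nuclei. The submitters' processing notes name GRCh38 and hg19, human builds, whereas the identifiers are mouse; the mouse build and whether introns were counted are not given in the sources used here. Of 31053 identifiers, 30934 (99.6%) matched GENCODE M21. Barcodes passed with 1000 or more genes and no more than 5% of UMIs from mitochondria (102 of 188 and 63 of 74 barcodes). No doublet caller was run. UMIs were summed per class and library and scaled to CPM (Python 3.11.15, numpy 2.4.6, scipy 1.17.1). Intervals are exact at 95% (Poisson, Clopper-Pearson, conditional binomial for ratios). Log2 ratios had 0.5 UMI added, and a gene was compared with at least 20 UMIs in both sums. The ratio step was tested on simulated data. All 10 members were named. Related genes were named past 2-fold, with a few others for context, and like genes by their 3 highest correlations. The members, lists and the *Ebf1*/*Cntn6* line were chosen with earlier results of these data known.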

Additional observations from a re-analysis of the deposited data

Results flagged for a closer look

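Barcodes with fewer than 1000 genes or over 5% mitochondrial UMIs enter no comparison, but they also held type II cadherin UMIs. In the AON library 86 such barcodes held 100 UMIs of the members, in 25 of the barcodes, or 1056 CPM against 1994 CPM in the nuclei above the filter. In the pPCx library 11 barcodes held 15 UMIs, or 1404 CPM (786 to 2316) against 1456 CPM. *Cdh10* led in both, with 25 and 11 UMIs.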

How the results depend on the processing

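No paired analysis was possible because neither injection site has more than 1 library. The counts of members past 2-fold between AON and pPCx projection nuclei stayed at 2 to 3 in either direction over 9 alternatives, and the log2 ratios of *Cdh6* (2.51 to 2.90), *Cdh20* (4.01 to 4.63), *Cdh7* (-4.11 to -1.78) and *Cdh12* (-1.68 to -1.38) kept their side. No member's ratio past 2-fold changed direction under these alternatives, which were run for the members only. With each nucleus weighing the same, 0 members passed 2-fold toward AON projection and 4 toward AON GABAergic nuclei. The latter count was 1 without nuclei over 3 times the median depth and 1 with 5 UMIs added. With median ratio scaling, 0 members passed 2-fold toward remaining nuclei, since all ratios shifted alike by 0.46. The median number of members per nucleus was 3 (AON) and 2 (pPCx) in 1 random thinning to 3000 UMIs, and 1.5 in AON with all deposited barcodes; the last includes shallow barcodes by construction. The causes of the other changes were not tested. Alternatives without shallow or glial-marked nuclei, for the combinations and for the *Ebf1*/*Cntn6* split were added after seeing the data. *Cdh7* and *Cdh9* had few UMIs, and a share of nuclei with 0 UMIs is no absence of expression.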
